A study of Rattus norvegicus with 16 samples.

Results

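The dorsal root ganglia (DRGs) of rats on the later tumor days were compared with those of sham rats and rats on the first tumor day. The late samples were the 3 samples of day 7 (replicates 1, 2 and 4) and the 4 samples of day 14 after tumor cell implantation (TCI), and the early samples were the 4 sham samples and the 3 samples of TCI day 1 (replicates 1, 3 and 4), so that 14 of the 16 samples of the series entered, 7 against 7. All rats were adult female Sprague-Dawley animals without a genetic change. TCI rats received Walker 256 cells, a rat mammary carcinoma line, into the left tibia, and the L3 to L5 DRGs of that side from 1 animal formed 1 sample. The sham injection was phosphate-buffered saline by the sample labels and boiled tumor cells by the study's methods. Sham DRGs were taken on day 14 only, so "early" is a name for the pool, which mixes 14 days after a sham injection with 1 day after TCI, and tumor burden and time since the injection of tumor cells cannot be told apart. TCI day 1 replicate 2 and TCI day 7 replicate 3, which the study set aside for a low correlation with their groups, were left out here and are given only as an alternative.

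A DRG holds the cell bodies of the sensory neurons, and each cell body is wrapped by satellite glia, which buffer potassium and take up transmitter around it. The axons are ensheathed by myelinating and non-myelinating Schwann cells, and resident macrophages, fibroblasts and vessels fill the rest. Large myelinated neurons rich in neurofilament carry touch and position sense, whereas small neurons, with or without neuropeptides, carry pain and temperature. Neurons spend much of their energy on sodium-potassium pumps, and myelin is unusually rich in cholesterol and sphingolipid.

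Late DRGs differed from early DRGs by many rises, some of them large, and by fewer falls, nearly all of them small. Of 14023 genes tested, 2645 (18.9%) rose and 777 (5.54%) fell at an adjusted p of at most 0.05, by limma on log2(FPKM + 1), where FPKM is the fragment count scaled for gene length and for mapped fragments of the library. Every adjusted p below comes from that fit with Benjamini-Hochberg adjustment over all genes tested, and ± is the standard error of the log2 fold change (n = 7 against 7). The falls had a median size of 0.20 on the log2 scale (interquartile range 0.15 to 0.28), and 744 of them (95.8%) were under 0.5. The rises had a median of 0.34, 1719 of them (65.0%) were under 0.5, and 435 reached 1. The median fall was 13.8% of the early mean FPKM. Genes that fell were well expressed, with a median early mean of 23.4 FPKM. That of genes that rose was 5.80 FPKM and that of all genes tested 9.44 FPKM. The 1 added to FPKM understates changes of low genes, so small falls of such genes were harder to call. Among the 4179 genes with an early mean of at least 20 FPKM, 555 (13.3%) rose and 430 (10.3%) fell. All 777 falls and all 2645 rises had the same sign on day 7 and on day 14, each set against the 7 early samples. The calls were made on both days together, so this was largely given in advance and is no measure of agreement between the days. The 7 late samples lay above all 7 early samples in 1108 genes (7.9%) and below all of them in 132 genes (0.941%). The study's stricter cut-offs (a change of 1 or more on the log2 scale, adjusted p no larger than 0.001) were passed by 356 rises (2.54%) and by 0 falls (0%) in limma, with 5072 genes of both signs together below an unadjusted p of 0.05.

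How many genes fell depended on how the samples were put on one scale. With FPKM as deposited the median log2 fold change over all genes was 0.03. Median-ratio scaling set it to 0.00 and gave 2085 rises and 1307 falls, among them all 777 of the falls above, and quantile normalization set it to -0.057 and gave 1580 rises and 3102 falls, with 775 of the 777. Scaling to the mean level of the 37 pan-neuronal genes, which asks what moved relative to neuronal RNA, shifted the median of all genes to 0.109 and gave 4700 rises and 152 falls, of which 151 were among the 777. A named fall could lose its call under this last scaling, and below that is said for part of the genes only. Under it 0 members fell in the lists of peptidergic nociceptor genes, sodium channel subunits, and TRP, ASIC, P2X and Piezo channels. The same held for axonal transport motors, non-myelinating and repair Schwann cell genes, glycolysis, the citric acid cycle, complex I and skeletal muscle genes. A value given for this scaling is the change relative to neuronal RNA. In RNA of whole ganglia, fewer cells of a type and less RNA per cell cannot be told apart.

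The libraries were those of sensory ganglia, with Prph, an intermediate filament of peripheral neurons, at group means of 1208 to 1446 FPKM and Mbp, of Schwann cells, at 914 FPKM or more in every sample, but they shifted between the pools. The sum of FPKM was 436572 to 450274 in early and 440863 to 471357 in late samples (exact permutation test, two-sided, p = 0.0134), and the number of genes with at least 1 FPKM was 13150 to 13239 against 13301 to 13805 (p = 0.000583, the smallest this exact test can give). TCI day 14 replicate 3 stood apart by a high pan-neuronal level and low glial levels, Sham replicate 4 by a high skeletal muscle level, and TCI day 14 replicate 2 by high interferon-induced genes. Without TCI day 14 replicate 3, 2999 genes rose and 919 fell, and without Sham replicate 4, 2427 rose and 650 fell. With sham alone as the early group, 1909 genes rose and 519 fell. Inside the early pool, TCI day 1 against sham, 0 genes passed limma's test (smallest adjusted p = 0.736, with unadjusted p below 0.05 in 734), and between day 14 and day 7, 1 gene was higher and 13 were lower on day 14.

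**Figure D1:**
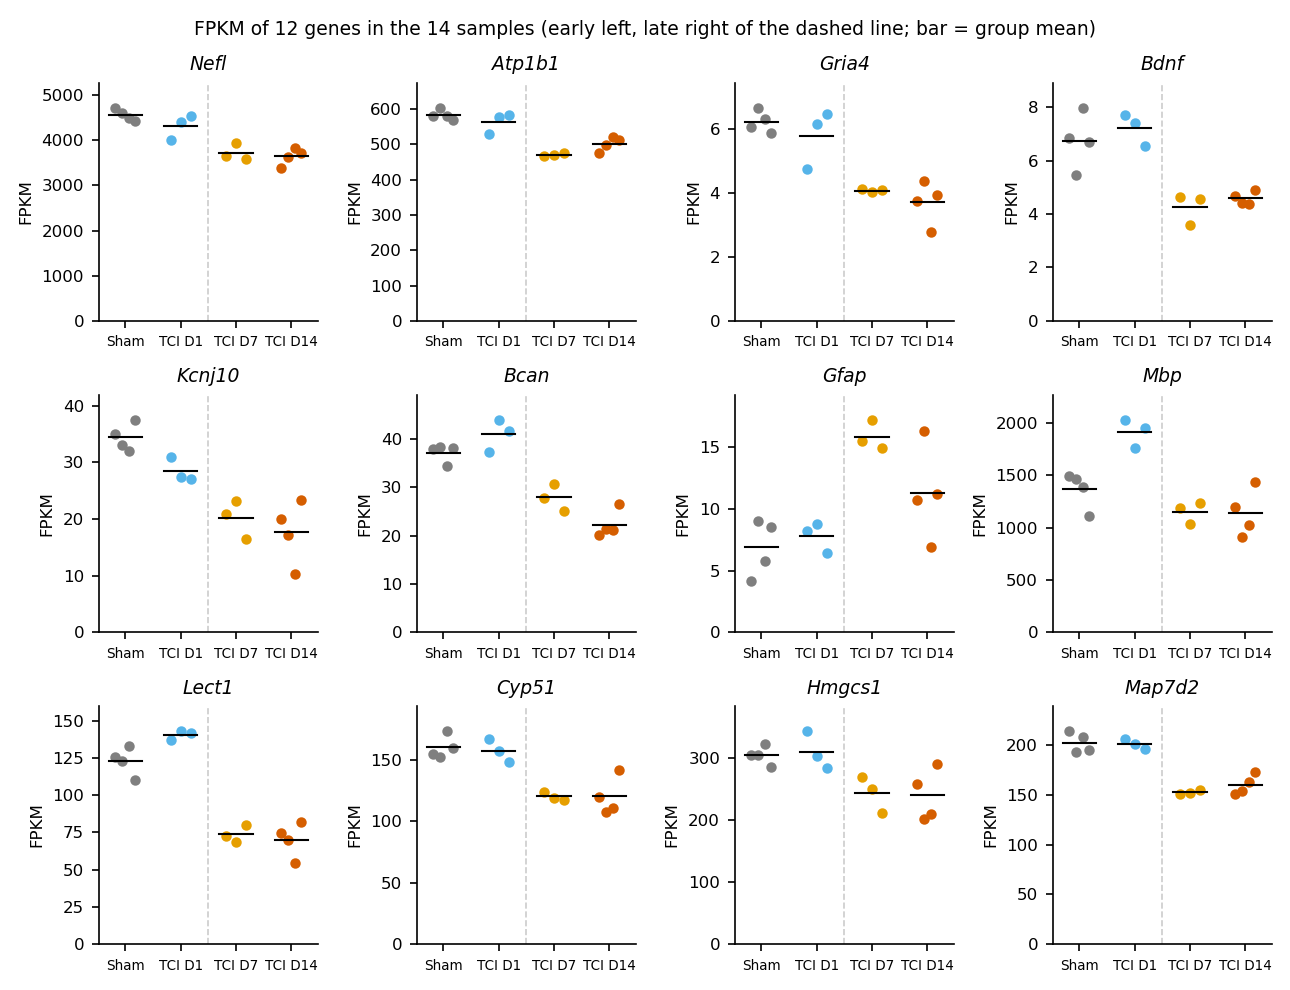
FPKM (vertical axes, from 0) of 12 genes in the 14 samples; each point is 1 sample, bars are group means, and the dashed line parts the 7 early from the 7 late samples. Nefl runs from 4004 to 4699 left of the line and from 3383 to 3926 right of it, Lect1 from 110 to 143 and from 54.3 to 82.0, while Mbp overlaps between the pools, with TCI day 1 (1756 to 2025) above sham (1113 to 1495).

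Neuronal genes were slightly lower as a body (median log2 fold change -0.06, but 0.03 under pan-neuronal scaling), and the neurofilaments were lower under every scaling tried. Over the 354 distinct genes tested from 14 neuronal lists, 50 (14.1%) fell and 23 rose, against 5.54% and 18.9% of all genes, and under pan-neuronal scaling 19 fell. Because neuronal genes are well expressed, the nearer comparison is with genes of at least 20 FPKM in the early samples, of which 10.3% fell, and 32 of the 174 neuronal genes at that level (18.4%) fell.

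The neurofilament genes encode the intermediate filaments that set the caliber of large axons. Nefl, the light chain, measured 4004 FPKM in the lowest, 4481 in the median and 4699 in the highest early sample, and 3383, 3654 and 3926 in the late samples. It fell by 0.28 ± 0.05 (adjusted p = 0.000462), and the pools did not overlap. Nefm, the medium chain, went from 3238 to 3878 FPKM in early samples to 2748 to 3112 in late samples and fell by 0.27 ± 0.05 (adjusted p = 0.000649). Nefh, the heavy chain, went from 2121 to 2431 FPKM to 1821 to 2034 FPKM and fell by 0.26 ± 0.04 (adjusted p = 0.000314). All 3 chains lay lower in every late than in every early sample, fell with any 1 sample left out, and fell under pan-neuronal scaling too, by 0.19, 0.18 and 0.17. The remaining members, Prph and Ina, had -0.16 and -0.08 and were not called. With sham alone as the early group the 3 falls were 0.31, 0.31 and 0.28.

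Of the 37 pan-neuronal genes, 32 had a log2 fold change below 0, 7 fell and 0 rose, with a median of -0.08 (0.01 under pan-neuronal scaling, by construction near 0). The summed level of the list ran from 14807 to 15708 FPKM in early and from 13323 to 17539 FPKM in late samples, the highest being TCI day 14 replicate 3, and without that sample 13 fell. Snap25, a SNARE protein of vesicle fusion, went from 667 to 776 FPKM to 594 to 681 FPKM and fell by 0.22 ± 0.04 (adjusted p = 0.00191). Chga and Scg2, granins of dense-core vesicles, fell by 0.25 and 0.22, Map1b, a microtubule protein, by 0.23, and Rbfox3, the NeuN splicing factor, by 0.16. Of these, Map1b, Scg2 and Rbfox3 lost their calls under pan-neuronal scaling. The broad neuronal markers Uchl1 (-0.04), Tubb3 (-0.12) and Sncg (-0.03), the highest members of the list, were not called.

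Of 40 synaptic vesicle and release genes 5 (12.5%) fell and 0 rose. Among all genes of at least 20 FPKM in the early samples 10.3% fell. With FPKM as deposited the share in the list is too near that background to be read as a change of the list. The median was -0.09, and 0.00 under pan-neuronal scaling, where 3 fell and 4 rose. Under median-ratio scaling 13 fell, against 1307 of all 14023 genes, and under quantile normalization 21 fell, against 3102. The falls with FPKM as deposited included Doc2a, a calcium sensor of release, by 0.30, and Vamp1, a vesicle SNARE, by 0.22 (383 to 415 FPKM against 312 to 397 FPKM). The count of falls was 8 without TCI day 1 replicate 1 or replicate 3 and 11 without TCI day 14 replicate 3. Of 30 axonal transport motors and adaptors 5 (16.7%) fell and 0 rose, against the same 10.3%. The median was -0.08, and 0.01 under pan-neuronal scaling, where 0 fell and 5 rose. There were 8 falls without TCI day 14 replicate 1 or replicate 3. Mapk8ip1, a scaffold that links cargo to kinesin, and Kif3c, a kinesin heavy chain, were the members without overlap between the pools. Mapk8ip1 went from 238 to 266 FPKM to 202 to 233 FPKM, a fall of 0.17 ± 0.04 (adjusted p = 0.00421).

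The lists for classes of sensory neurons are set beside all genes tested, of which 18.9% rose and 5.54% fell (10.3% fell at 20 FPKM or more). Of 20 genes of large-fiber and low-threshold neurons 5 (25%) fell and 0 rose (median -0.07, and 0.02 under pan-neuronal scaling). Ntrk2, the BDNF receptor TrkB, measured 43.5 to 51.5 FPKM in early and 30.5 to 42.4 FPKM in late samples, with no overlap, and fell by 0.32 ± 0.06 (adjusted p = 0.0024). Hapln4, a link protein of perineuronal matrix, also separated the pools (22.1 to 29.2 against 18.5 to 22.0 FPKM) and fell by 0.32 ± 0.06. Asic1, an acid-sensing channel, fell by 0.16, and Pvalb, the calcium buffer parvalbumin, by 0.20, a call that 5 of the 14 fits without 1 sample kept. Of 12 peptidergic nociceptor genes 1 (8.33%) fell and 1 (8.33%) rose. Tac1, which encodes substance P, fell by 0.24 ± 0.07 (adjusted p = 0.0173) and Osmr, an oncostatin M receptor chain, rose by 0.51 ± 0.14. Calca, the CGRP precursor, had -0.14, and Trpv1, the capsaicin receptor, -0.03, and neither was called. Of 15 non-peptidergic nociceptor genes 0 fell and 2 (13.3%) rose, a share below that of all genes. The rises were P2rx3, an ATP-gated channel (0.23 ± 0.07), and Gfra2, a neurturin receptor (0.17 ± 0.06), calls that 10 and 5 of the 14 fits without 1 sample kept. Without 1 sample the rises of this list numbered 0 (without Sham replicate 3, TCI day 1 replicate 3 or 4, or TCI day 7 replicate 4) to 4 (without TCI day 1 replicate 1), and peptidergic falls numbered 2 without TCI day 14 replicate 3. The difference between these classes was not tested.

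With FPKM as deposited, ion channels moved little apart from single subunits. Among all genes tested 18.9% rose and 5.54% fell. Under quantile normalization 5 of 11 sodium channel and 12 of 22 calcium channel and HCN subunits fell. So did 27 of 68 potassium channel subunits and 6 of 23 TRP, ASIC, P2X and Piezo channels, against 3102 of all 14023 genes. Pan-neuronal scaling left 0, 1, 3 and 0 falls in these lists. The calls below are those with FPKM as deposited. Of 11 sodium channel subunits only Scn1a was called, at -0.19 ± 0.07 (adjusted p = 0.0493), a call that 2 of the 14 fits without 1 sample kept, while Scn9a (-0.08), Scn10a (-0.12) and Scn11a (0.08), the nociceptor channels, were not called. Of 22 calcium channel and HCN subunits 2 were called lower, Cacng4 and Cacng2, auxiliary subunits that also traffic AMPA receptors. Cacng4 went from 9.79 to 13.1 FPKM to 5.98 to 11.4 FPKM and fell by 0.46 ± 0.12 (adjusted p = 0.00979), whereas 1 of the 14 fits kept the call of Cacng2 (-0.16). Of 68 potassium channel subunits 9 (13.2%) rose and 8 (11.8%) fell (5 fell without Sham replicate 3 or TCI day 7 replicate 4). The largest fall was that of the glial channel Kcnj10, described below. The rises were led by subunits of low level, Kcnj13 (0.57 to 1.28 FPKM against 1.45 to 3.35 FPKM, 0.85 ± 0.13) and Kcnk6 (1.06 to 1.43 FPKM against 1.5 to 3.44 FPKM, 0.68 ± 0.10). Of 23 TRP, ASIC, P2X and Piezo channels 4 (17.4%) rose and 2 (8.70%) fell, near the shares of all genes. With 1 sample left out 1 to 4 fell, most without TCI day 14 replicate 1. Trpm2, an oxidant-gated channel also made by myeloid cells, rose by 0.70 ± 0.12.

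Receptors for transmitters included a clear fall of the AMPA receptor subunit Gria4. Of 44 GABA, glutamate, opioid and monoamine receptor genes 12 (27.3%) fell and 1 (2.27%) rose, against 5.54% and 18.9% of all genes. The median was -0.10 (-0.03 under pan-neuronal scaling, where 4 fell). Gria4 measured 4.74, 6.15 and 6.63 FPKM in the lowest, median and highest early samples and 2.79, 4.01 and 4.37 FPKM in the late samples. The pools did not overlap, and Gria4 fell by 0.53 ± 0.08 (adjusted p = 0.000189), and by 0.46 under pan-neuronal scaling. Gabra5, a GABA-A receptor subunit, also lay lower in all late samples (3.24 to 3.84 against 2.33 to 3.20 FPKM, a fall of 0.27 ± 0.06). Chrnb4, a nicotinic subunit, fell by 0.41 ± 0.09 (adjusted p = 0.00491). Oprm1, the mu opioid receptor, was at 1.76 to 3.17 FPKM in early and 0.82 to 2.23 FPKM in late samples and fell by 0.38 ± 0.12 (adjusted p = 0.0322), a call that 7 of the 14 fits without 1 sample kept. Grik5, a kainate receptor subunit, rose by 0.18 ± 0.05 without overlap between the pools. The count of falls in this list was unstable, with 5 without Sham replicate 1, 2 or 4, 6 without Sham replicate 3, and 7 without TCI day 7 replicate 4 or TCI day 14 replicate 2.

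Of 24 transcription factors of sensory neurons 1 (4.17%) fell and 2 (8.33%) rose, against 5.54% and 18.9% of all genes (2 fell without TCI day 1 replicate 3 or 4). Pou4f3, a POU factor of sensory neurons and hair cells, measured 12.7, 14.1 and 15.3 FPKM in early and 10.2, 10.3 and 12 FPKM in late samples as lowest, median and highest. The pools were separate, and Pou4f3 fell by 0.36 ± 0.05 (adjusted p = 7e-05), and by 0.28 under pan-neuronal scaling, while its relative Pou4f1 had -0.06 and was not called. Runx1, which specifies nociceptors and is also active in blood cells, rose by 0.20 ± 0.04, and Ebf2 by 0.59 ± 0.11. In the list of 25 nerve injury and regeneration genes 5 (20%) rose and 1 (4%) fell, near the 18.9% and 5.54% of all genes. The fall was Bdnf, the neurotrophin, at 5.47, 6.84 and 7.95 FPKM in early and 3.59, 4.57 and 4.91 FPKM in late samples. It fell by 0.54 ± 0.07 (adjusted p = 9.71e-05) with separate pools. The rises included Csf1, a macrophage growth factor that injured sensory neurons make (0.58 ± 0.11), and Anxa1, an anti-inflammatory annexin (0.51 ± 0.12). The classic injury genes Atf3 (0.13), Gal (-0.17), Npy (-0.07) and Sox11 (-0.02) were not called.

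**Figure D2:**
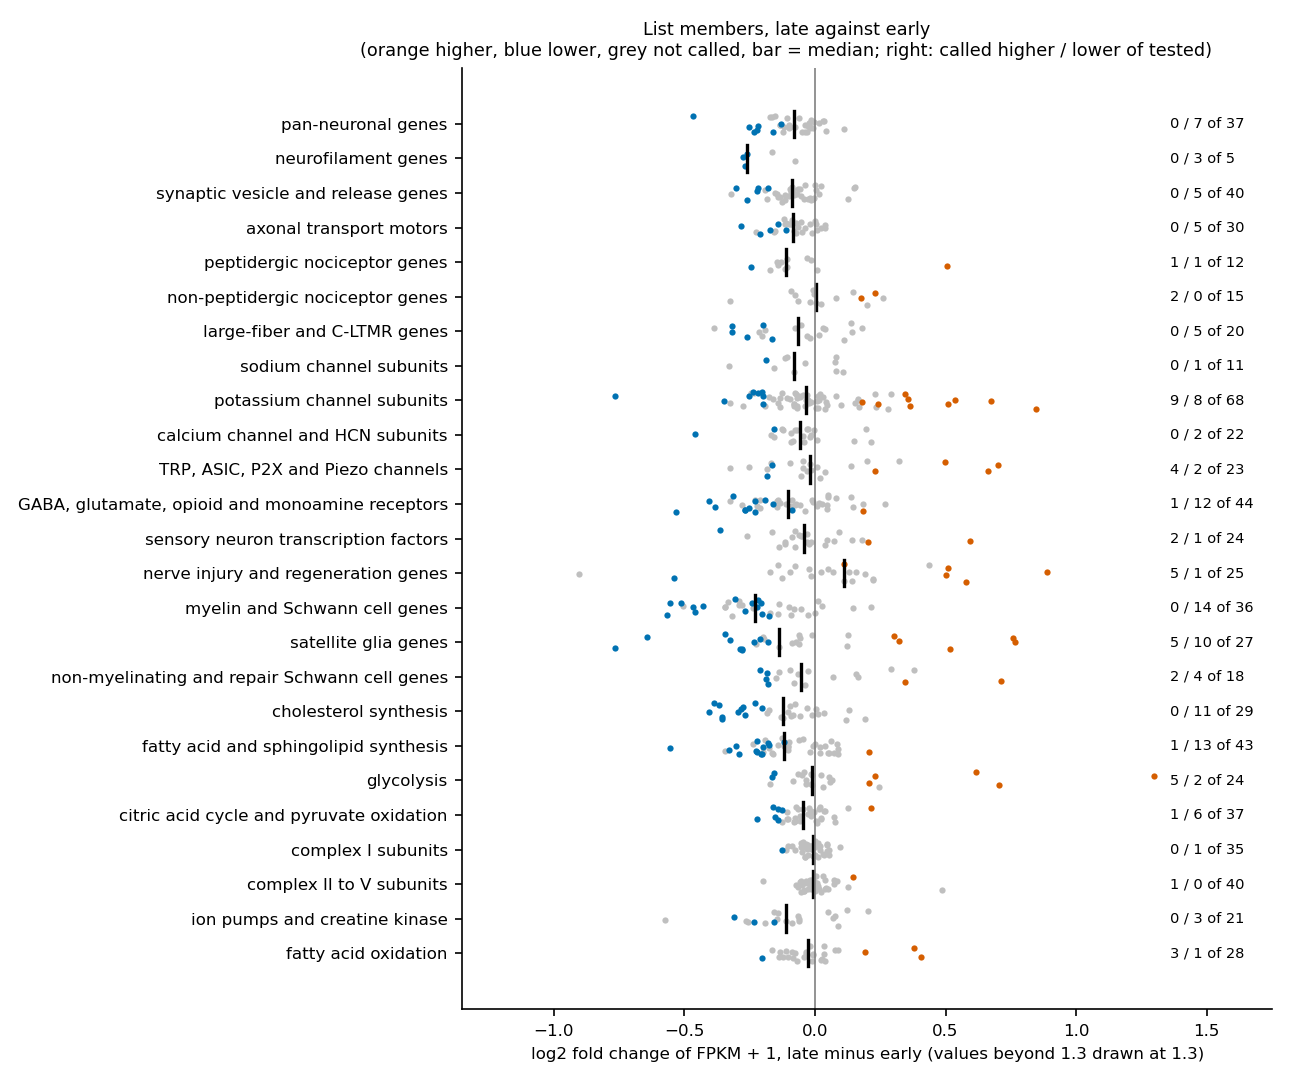
Log2 fold changes, late minus early (horizontal axis), of every tested member of 25 neuronal, glial and metabolic lists; points are genes (blue lower, orange higher, grey not called), black bars are list medians, and the numbers at the right give the called members. Most medians sit just left of 0, between -0.26 for neurofilaments and 0.00 for non-peptidergic nociceptor genes, with the nerve injury list (0.11) to the right.

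Many single genes of satellite glia and of myelin were lowered, while the summed level of the satellite glia list was not. Of 81 distinct glial genes tested, 28 (34.6%) fell and 7 (8.64%) rose, with a median of -0.17, and of the 54 at 20 FPKM or more in the early samples 22 (40.7%) fell, against 10.3% of all genes at that level. Under pan-neuronal scaling the median stayed below 0 at -0.08 and 7 fell.

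Of 27 satellite glia genes tested 10 (37.0%) fell and 5 (18.5%) rose, against 5.54% and 18.9% of all genes. The share that rose was thus near that of all genes. The median was -0.14, and -0.05 under pan-neuronal scaling, where 3 fell. The summed level of the list was 5042 to 5983 FPKM in early and 5109 to 6226 FPKM in late samples, with means of 5550 and 5552 FPKM. As mean log2(FPKM + 1) the list was at 5.17 to 5.25 in early samples. It was at 4.85 in TCI day 14 replicate 3 and at 5.13 to 5.23 in the other late samples. Kcnj10, the inward rectifier Kir4.1 that clears potassium around the neuron, measured 35.0, 33.1, 32.1 and 37.5 FPKM in sham replicates 1 to 4 and 31.0, 27.4 and 27.1 FPKM in TCI day 1 replicates 1, 3 and 4. It measured 20.9, 23.2 and 16.5 FPKM in TCI day 7 replicates 1, 2 and 4 and 19.9, 17.2, 10.3 and 23.3 FPKM in TCI day 14 replicates 1 to 4. Every late sample was below every early one, the 3 samples of TCI day 1 were below the 4 sham samples, and the lowest of all was TCI day 14 replicate 3. Kcnj10 fell by 0.77 ± 0.14 (adjusted p = 0.00124), by 0.64 without that sample, and by 0.68 under pan-neuronal scaling, and the step from sham to TCI day 1 was not called (-0.26, adjusted p = 0.97). Bcan, the matrix proteoglycan brevican, measured 34.4, 38.1 and 44.0 FPKM in early and 20.1, 25.2 and 30.7 FPKM in late samples. It fell by 0.64 ± 0.09 (adjusted p = 9.8e-05), with separate pools. S100a1, a calcium-binding protein, also separated the pools (15.0 to 17.8 against 10.9 to 14.2 FPKM, a fall of 0.32 ± 0.05), and Ednrb, an endothelin receptor, and Ptprz1, a receptor phosphatase, fell by 0.29 and 0.28.

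Against these, Gfap, the intermediate filament that satellite glia raise when activated, was at 4.19, 8.19 and 9.07 FPKM in early and 6.89, 14.9 and 17.2 FPKM in late samples. It rose by 0.77 ± 0.19 (adjusted p = 0.0089), with 1 late sample, TCI day 14 replicate 3, inside the early range. Glul, glutamine synthetase, rose by 0.30 ± 0.09 (102 to 118 FPKM against a median of 146 FPKM), and Ptgds, prostaglandin D synthase, by 0.76 ± 0.24, a call that 8 of the 14 fits without 1 sample kept. Fabp7, a defining satellite glia marker, had -0.23 and was not called, and Apoe, the highest member, had -0.09.

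Of 36 myelin and Schwann cell genes 14 fell and 0 rose, 32 had a log2 fold change below 0, and the median was -0.23 (-0.14 under pan-neuronal scaling, where 4 fell). Mbp, myelin basic protein, measured 1113, 1495 and 2025 FPKM in the lowest, median and highest early samples and 914, 1184 and 1430 FPKM in the late samples. The pools overlapped, and Mbp fell by 0.47 ± 0.13 (adjusted p = 0.0152). Pmp22, a further compact myelin protein, fell by 0.43 ± 0.12 (2008 to 3186 against 1554 to 2633 FPKM). Ugt8, which makes the myelin lipid galactosylceramide, fell by 0.56 ± 0.14, and Gjc3, a gap junction protein, by 0.57 ± 0.14. Prx, the defining marker periaxin, had -0.28 and was not called.

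The size of the myelin falls depended on the day 1 samples of the early pool. Mbp averaged 1364 FPKM in sham, 1910 in TCI day 1, 1152 in TCI day 7 and 1140 in TCI day 14, so that TCI day 1 was highest, although its difference from sham was not called (0.49, adjusted p = 0.79). With sham alone as the early group the fall of Mbp was 0.26 (adjusted p = 0.16) and that of Pmp22 0.29 (adjusted p = 0.18), and of the 36 genes 2 fell and 1 rose (median -0.17). With TCI day 1 alone as the early group 8 fell (median -0.31). Without TCI day 1 replicate 3, 9 fell. The summed level of the list was 10622 to 13810 FPKM in sham, with Sham replicate 4 lowest, 15361 to 16728 FPKM in TCI day 1, and 9065 to 13474 FPKM in late samples. For Kcnj10 and Bcan the sham-only falls, 0.88 and 0.58, stayed past the test (adjusted p = 0.0059 and 0.0034). Of 18 genes of non-myelinating and repair Schwann cells 4 fell and 2 rose (median -0.05, and 0.04 under pan-neuronal scaling). Ngfr, the low-affinity neurotrophin receptor, Ncam1, Itga7 and Cadm3, adhesion proteins, fell by 0.18 to 0.21, Tgfbi, a matrix protein, rose by 0.71 ± 0.17, and Runx2 by 0.35 ± 0.09.

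**Figure D3:**
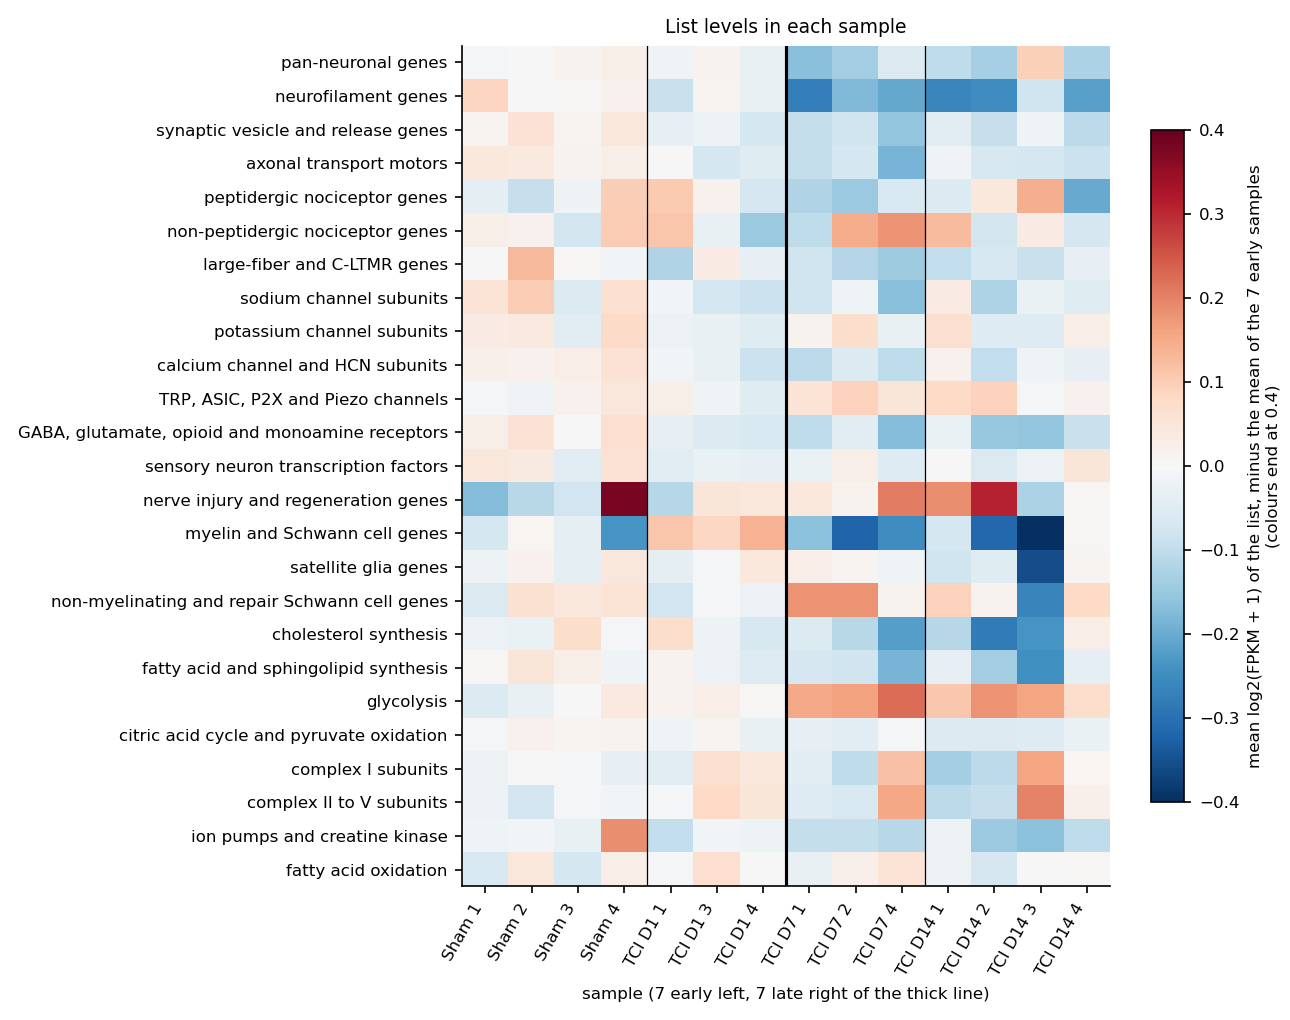
Mean log2(FPKM + 1) of each list (rows) in each of the 14 samples (columns), minus the mean of the 7 early samples, drawn as colour from -0.4 (blue) to 0.4 (red). Neurofilament genes are blue in all 7 late columns, myelin genes are red in the 3 TCI day 1 columns and blue in most late columns and in Sham 4, and TCI D14 3 departs from the other late columns in pan-neuronal genes (7.32 on the log2 scale against 7.06 to 7.17) and satellite glia genes (4.85 against 5.13 to 5.23).

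Falls among metabolic genes included parts of cholesterol and of fatty acid and sphingolipid synthesis. Of 253 distinct metabolic genes tested 37 (14.6%) fell and 11 (4.35%) rose, with a median of -0.04 (0.05 under pan-neuronal scaling, where 9 fell). Of the 198 at 20 FPKM or more in the early samples 35 (17.7%) fell, against 10.3% of all genes at that level.

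Cholesterol synthesis runs from acetyl units over mevalonate and isoprenoids to squalene, lanosterol and cholesterol, and glia make most of the cholesterol that myelin and neurons use. Of 29 genes tested 11 (37.9%) fell and 0 rose, 23 had a log2 fold change below 0, and the median was -0.12 (-0.03 under pan-neuronal scaling, where 5 fell and 1 rose). The promoters of a pair of members, as 300 bases from 250 before to 50 after the gene start in RefSeq (assembly GRCr8), are shown because they carry the CCAAT box, which NF-Y binds and which is common in this pathway. Capitals mark CCAAT read on either strand (CCAAT or ATTGG).

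Idi1, chr17:66547475-66547774, minus strand: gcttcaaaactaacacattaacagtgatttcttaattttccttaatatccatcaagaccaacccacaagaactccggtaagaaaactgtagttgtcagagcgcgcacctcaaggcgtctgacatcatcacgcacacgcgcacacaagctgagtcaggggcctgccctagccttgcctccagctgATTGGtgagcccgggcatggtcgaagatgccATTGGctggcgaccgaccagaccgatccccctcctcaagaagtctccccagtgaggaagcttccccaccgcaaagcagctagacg

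Hmgcs1, chr2:53382054-53382353, plus strand: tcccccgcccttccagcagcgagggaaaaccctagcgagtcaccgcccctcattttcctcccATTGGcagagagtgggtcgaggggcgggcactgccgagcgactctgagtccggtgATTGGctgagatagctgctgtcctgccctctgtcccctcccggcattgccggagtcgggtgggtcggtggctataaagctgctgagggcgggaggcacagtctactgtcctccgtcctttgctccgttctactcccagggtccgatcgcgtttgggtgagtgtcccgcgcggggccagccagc

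The box was found in the promoters of 17 of the 21 pathway genes with an entry (81.0%), against 37.7% of all 27457 promoters of that length and 37.2% of the 11000 tested genes with an entry. It did not set the called members apart, since 6 of the 9 called members with an entry held it, and it was in 36.4% of promoters of all genes that fell. The sterol response element core TCACNCCAC, searched on both strands, was in 0 of the 21 and in 1.13% of all promoters. A match is a description of the letters in this window and no measure of binding.

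Along the pathway the falls began at the first steps. Acat2, which joins acetyl-CoA units, fell by 0.20, and Hmgcs1, HMG-CoA synthase, by 0.36 ± 0.08 (284 to 343 against 201 to 291 FPKM, adjusted p = 0.00422). The kinases and decarboxylase of mevalonate, Mvk (-0.10), Pmvk (0.01) and Mvd (-0.18), were not called. Idi1, which isomerizes isopentenyl diphosphate, measured 39.1, 41.0 and 46.1 FPKM in early and 22.9, 32.2 and 41.0 FPKM in late samples and fell by 0.39 ± 0.10 (adjusted p = 0.00854). The lowest late value was that of TCI day 14 replicate 2 and TCI day 14 replicate 4 lay inside the early range.

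Among the enzymes after squalene, Cyp51, lanosterol demethylase, gave the clearest fall. It measured 148, 157 and 173 FPKM in the lowest, median and highest early samples and 108, 119 and 142 FPKM in the late samples. The pools were separate, and Cyp51 fell by 0.40 ± 0.05 (adjusted p = 8.69e-05), by 0.41 with sham alone as the early group, and by 0.31 under pan-neuronal scaling. Sc5d and Dhcr7, which act at the end of the pathway, fell by 0.37 ± 0.08 and 0.36 ± 0.08, and Nsdhl, a demethylating dehydrogenase, by 0.29 ± 0.07. Sqle, Tm7sf2 and Msmo1, named here beyond the naming rule to complete the pathway, fell by 0.23, 0.27 and 0.28. Fdps (-0.12), which makes farnesyl diphosphate, was not called, and neither was Srebf2 (0.00), which encodes the sterol-sensing activator of the pathway. With sham alone as the early group 6 members fell, and with TCI day 1 alone 1 did.

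**Figure D4:**
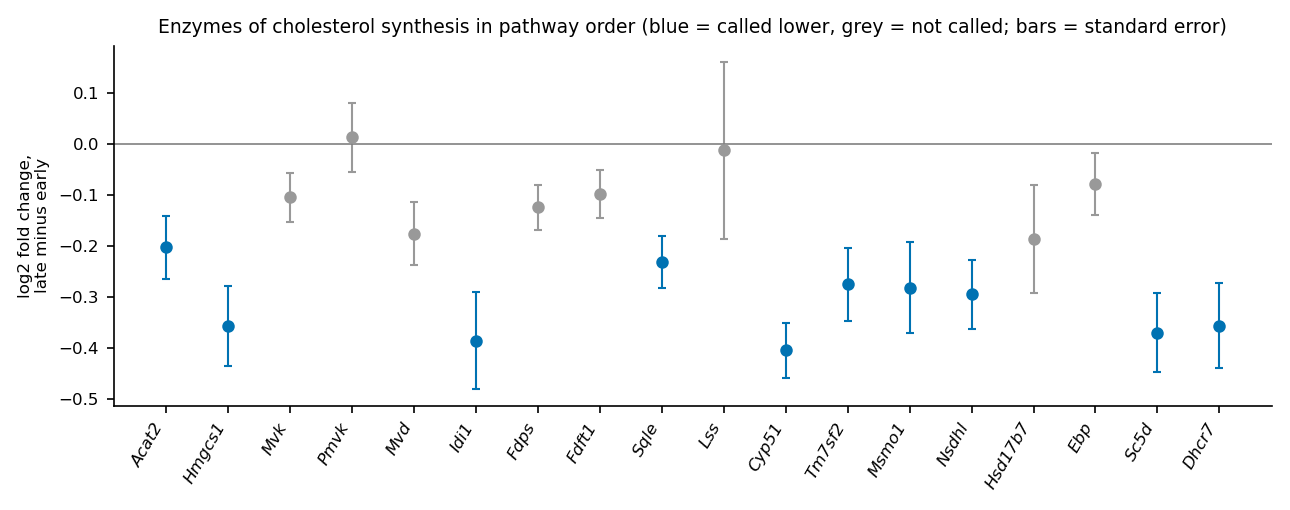
Log2 fold change, late minus early (vertical axis, bars are standard errors), of 18 enzymes of cholesterol synthesis from left to right in pathway order; blue enzymes were called lower, grey ones were not called. The largest falls are those of Cyp51 (-0.40), Idi1 (-0.39) and Sc5d (-0.37), and Pmvk (0.01) is the only point above 0.

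Fatty acid and sphingolipid synthesis held 13 falls and 1 rise among 43 genes (median -0.12, and -0.03 under pan-neuronal scaling, where 1 fell). Scd2 and Scd, stearoyl-CoA desaturases of similar sequence between which reads may be split, fell by 0.30 ± 0.06 and 0.33 ± 0.08. Scd2 measured 930 to 1021 FPKM in early and 642 to 924 FPKM in late samples, with no overlap. Fads2, which desaturates polyunsaturated fatty acids, fell by 0.29 ± 0.08 (adjusted p = 0.0111), and Acly, which makes cytosolic acetyl-CoA, by 0.23 ± 0.06. Under pan-neuronal scaling Scd2, Scd and Fads2 kept values of -0.21, -0.24 and -0.20 and lost their calls. Fasn, fatty acid synthase, had -0.16 and was not called. The rise, B3galt4, a ganglioside galactosyltransferase, was 0.21 ± 0.07, a call that 3 of the 14 fits without 1 sample kept.

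Energy metabolism was read from the respiratory chain, the citric acid cycle, glycolysis and fatty acid oxidation. Of 35 subunits of complex I 1 fell, Ndufs1 (-0.13 ± 0.03), and of 40 subunits of complexes II to V 1 rose, Atp5g2 (0.15 ± 0.04), with medians of -0.01 each (0.08 each under pan-neuronal scaling). Without TCI day 14 replicate 3 there were 3 falls in complex I, without TCI day 7 replicate 4 there were 2, and without TCI day 14 replicate 1 there were 2 rises in complexes II to V. In the citric acid cycle 6 of 37 genes fell and 1 rose (median -0.05, and 0.04 under pan-neuronal scaling, where 8 rose and 0 fell), and 3 fell without Sham replicate 2. Idh3a, a catalytic subunit of isocitrate dehydrogenase, separated the pools at 87.6 to 92.5 against 80.1 to 84.6 FPKM, a fall of 0.14 ± 0.02 (adjusted p = 0.00061).

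Of 24 glycolysis genes 5 (20.8%) rose and 2 (8.33%) fell, near the 18.9% and 5.54% of all genes. The median was -0.01, and 0.08 under pan-neuronal scaling. Pfkm, the muscle-type phosphofructokinase that neurons also use, fell by 0.16 ± 0.03 without overlap of the pools, and Ldhb, a lactate dehydrogenase, by 0.16 ± 0.04. Hk3, a hexokinase of myeloid cells, rose from 0.04 to 0.14 FPKM to 1.61 to 9.67 FPKM (2.23 ± 0.27, adjusted p = 4.91e-05), and Hk2, the inducible hexokinase, by 0.62 ± 0.11. The rises numbered 3 without Sham replicate 1, 2 or 3, TCI day 1 replicate 3, or TCI day 7 replicate 1 or 4, and the falls 4 without TCI day 14 replicate 3. In fatty acid oxidation Cpt1a, which admits fatty acids to mitochondria, fell by 0.20 ± 0.03 (34.9 to 37.5 against 30.1 to 32.9 FPKM), and Ucp2, an uncoupling protein of immune cells and neurons, rose by 0.41 ± 0.06 (88.7 to 123 against 136 to 161 FPKM), both with separate pools, and 2 more members rose. Without TCI day 7 replicate 4, 4 members fell, and without TCI day 7 replicate 2 or TCI day 14 replicate 3, 2 did.

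Of 21 ion pumps and creatine kinase genes 3 (14.3%) fell and 0 rose, against 10.3% lower among all genes of at least 20 FPKM in the early samples. With FPKM as deposited that share is too near the background to be read as a change of the list. The median was -0.11 (-0.02 under pan-neuronal scaling, where 2 fell), and 5 fell without TCI day 14 replicate 1 or replicate 3. Under median-ratio scaling 7 fell, against 1307 of all 14023 genes, and under quantile normalization 11 fell, against 3102. Sham replicate 4, the early sample with the high muscle level, was also highest in this list (5.62 as mean log2(FPKM + 1), against 5.34 to 5.43 in the other early samples), and without it 3 fell and the median was -0.09. Atp1b1, the beta subunit of the pump, measured 530, 580 and 602 FPKM in early and 468, 476 and 521 FPKM in late samples. The pools were separate and Atp1b1 fell by 0.23 ± 0.04 (adjusted p = 0.00026). It kept its call under pan-neuronal scaling, at -0.14. Atp2a2, the calcium pump of the endoplasmic reticulum, fell by 0.16.

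**Figure D5:**
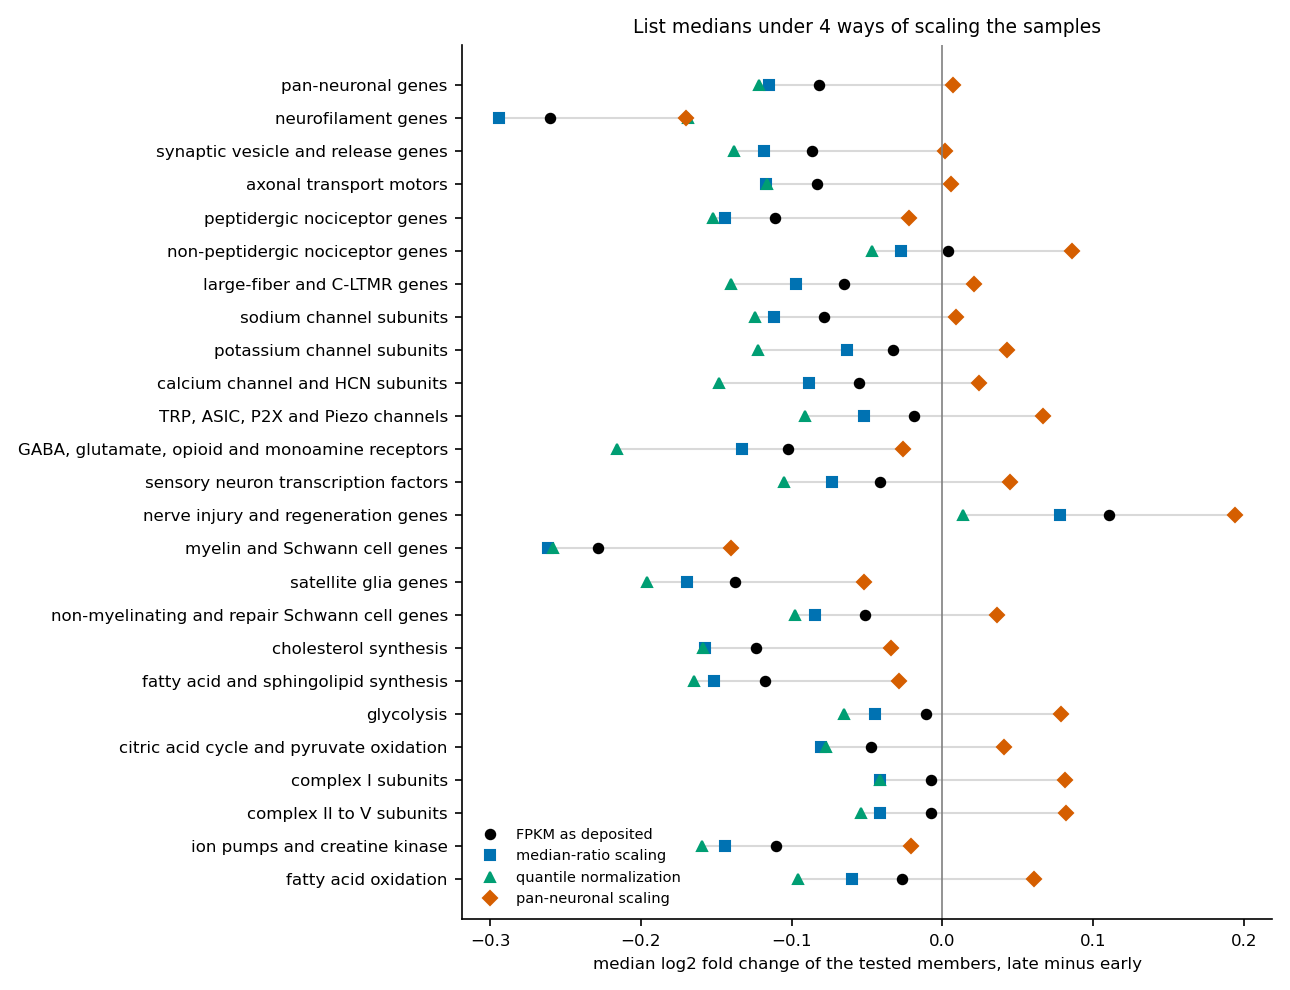
Median log2 fold change, late minus early (horizontal axis), of the tested members of each list under FPKM as deposited (black circles), median-ratio scaling (blue squares), quantile normalization (green triangles) and pan-neuronal scaling (orange diamonds). Under pan-neuronal scaling the myelin (-0.14), satellite glia (-0.05), cholesterol (-0.03) and neurofilament (-0.17) medians stay left of 0, while that of pan-neuronal genes reaches 0.01 and that of complex I subunits 0.08.

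Of the 777 falls 114 were in one of the lists and 663 were not. By the rule for the largest falls, which takes only genes without overlap of the pools, the greatest was Lect1, chondromodulin, a matrix protein that inhibits vessel growth. It measured 110, 133 and 143 FPKM in the lowest, median and highest early samples and 54.3, 72.3 and 82.0 FPKM in the late samples, a fall of 0.86 ± 0.08 (adjusted p = 6.2e-06) that stood at 0.77 under pan-neuronal scaling and 0.78 with sham alone. Fbln2, fibulin 2 of the extracellular matrix, went from 142 to 183 FPKM to 90.0 to 127 FPKM and fell by 0.54 ± 0.08 (adjusted p = 0.000223), while its relative Fbln1 rose by 1.3 ± 0.23. Tyrp1, an enzyme of the melanosome, went from 187 to 227 FPKM to 98.6 to 186 FPKM and fell by 0.50 ± 0.13.

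Others of this group lay at lower levels. Scrg1, a small secreted protein of the nervous system, fell from 7.40 to 8.88 FPKM to 3.73 to 6.04 FPKM (-0.61 ± 0.08, adjusted p = 7.92e-05). Tril, which binds Toll-like receptor 4 and is made by glia, fell from 24.8 to 27.1 FPKM to 13.9 to 21.2 FPKM (-0.51 ± 0.09). Folh1, a glial peptidase that releases glutamate from N-acetylaspartylglutamate, fell from 8.58 to 10.2 FPKM to 4.85 to 7.86 FPKM (-0.46 ± 0.09). Nt5dc2 and Hpdl, a mitochondrial dioxygenase-like protein, fell by 0.62 ± 0.11 and 0.57 ± 0.13. All of these falls, Lect1 included, kept their calls with any 1 sample left out and under pan-neuronal scaling.

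The small falls with the smallest adjusted p, a choice that favors genes of little spread, are given as a description. Map7d2, a microtubule-associated protein that recruits kinesin, measured 194, 201 and 214 FPKM in early and 151, 154 and 174 FPKM in late samples and fell by 0.36 ± 0.04 (adjusted p = 9.52e-06). Tyro3, a receptor kinase of the TAM family, went from a median of 19.1 FPKM to one of 15.5 FPKM (-0.27 ± 0.03, adjusted p = 3.09e-05). Mest, an imprinted hydrolase-like gene, went from 41.5 to 48.4 FPKM to 32.5 to 40.0 FPKM (-0.36 ± 0.05). In each of the 3 the pools were separate. Hspa4l, a chaperone of the HSP110 family, Nkiras1, a Ras-like protein that binds NF-kB inhibitors, and Mmd2 fell by 0.29, 0.23 and 0.38, again with separate pools. The step from sham to TCI day 1 was between -0.10 and 0.00 in these 6 genes, and 0 of the steps were called.

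Most rises were small too, but some were far larger than any fall, and lists of immune genes among them are given as a description of the late samples. All 20 tested macrophage genes rose (median 1.68), and their summed level was 104 to 176 FPKM in early and 645 to 2126 FPKM in late samples. All 21 tested genes of T and NK cells rose (median 1.89, 7.37 to 12.7 FPKM summed against 80.0 to 288 FPKM), with Cd3e, a chain of the T cell receptor complex, at 0 to 0.12 FPKM in early and 2.89 to 12.7 FPKM in late samples. Only genes that reached 1 FPKM in 3 or more samples were tested, and the median early mean of this list was 0.09 FPKM. Most of its members could thus enter only through late samples, so their count of rises was largely given in advance. The same holds for other immune genes near 0 in early samples. The lists of B cells and of neutrophils and mast cells had only 4 tested genes each, of which 2 each rose (1 each in 6 and 10 of the 14 fits without 1 sample). All 12 genes of MHC class II and its processing rose (median 2.67), as did all 21 of MHC class I and the immunoproteasome (1.82), 41 of 42 interferon-stimulated genes (1.28) and 18 of 22 complement genes (1.69), whereas 69 of 75 cytosolic ribosomal protein genes rose by little (median 0.36). The part of these cells in the falls of neuronal, glial and lipid genes was not tested.

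By the naming rule the largest rises were Ccl5, a chemokine of T cells (0.49 to 2.05 against 32.0 to 115 FPKM, 4.71 ± 0.29), Ubd, a ubiquitin-like protein induced by interferon (4.43 ± 0.50), Lyc2, a lysozyme whose reads may be split with Lyz2 (4.15 ± 0.41), Fcgr3a, an Fc receptor (3.78 ± 0.36), Cxcl9 and Cxcl13, lymphocyte chemokines (3.77 ± 0.38 and 3.67 ± 0.49), and RT1-Da and Cd74, of MHC class II (3.63 ± 0.25 and 3.60 ± 0.26). These were chosen among genes without overlap of the pools. Promoters of a pair of interferon-stimulated members are shown for the core of the interferon response element (GAAA, any 2 bases, GAAA), which is in capitals as read on either strand.

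Gbp2, chr2:234005477-234005776, plus strand: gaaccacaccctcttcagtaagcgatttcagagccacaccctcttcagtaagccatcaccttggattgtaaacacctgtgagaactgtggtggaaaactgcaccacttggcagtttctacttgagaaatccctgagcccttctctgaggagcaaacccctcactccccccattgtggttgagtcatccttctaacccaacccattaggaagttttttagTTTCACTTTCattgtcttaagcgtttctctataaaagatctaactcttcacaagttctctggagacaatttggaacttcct

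Cxcl10, chr14:15988816-15989115, plus strand: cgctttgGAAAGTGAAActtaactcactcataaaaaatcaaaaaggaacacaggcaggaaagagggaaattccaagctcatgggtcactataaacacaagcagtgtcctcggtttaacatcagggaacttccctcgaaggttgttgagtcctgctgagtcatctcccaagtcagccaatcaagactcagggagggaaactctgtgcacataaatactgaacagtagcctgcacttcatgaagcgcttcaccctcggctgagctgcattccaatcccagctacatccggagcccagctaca

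Gbp2, a guanylate-binding protein, went from 5.42, 7.98 and 8.68 FPKM to 30.3, 60.6 and 201 FPKM (2.81 ± 0.33) and Cxcl10, a chemokine, from 1.64, 3.4 and 5.66 FPKM to 13, 29.2 and 99.4 FPKM (2.78 ± 0.38), as lowest, median and highest. TCI day 14 replicate 2 gave the highest value of both. The element was in 3.77% of all promoters, in 6.65% of those of genes that rose (138 of 2075 with an entry), in 12 of 601 of those of genes that fell, and in 21 of 33 interferon-stimulated genes with an entry (63.6%). No difference between these shares was tested.

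The remaining lists of other cell types moved less. They are set beside all genes tested, of which 18.9% rose and 5.54% fell. Of 26 fibroblast and collagen genes 13 rose and 1, Fbln2, fell (median 0.45, summed 787 to 1235 against 658 to 1870 FPKM). Of 23 endothelial and mural cell genes 5 (21.7%) rose, near the share of all genes. Their median was 0.05 and their summed level 154 to 187 against 142 to 234 FPKM. There were 3 rises without Sham replicate 1 or 3 or TCI day 7 replicate 1 or 2. Of 13 skeletal muscle genes only Pvalb, which sensory neurons share, was called, and the summed level was 265 to 833 FPKM in early samples, highest in Sham replicate 4, and 267 to 324 FPKM in late samples. Without Sham replicate 4, 4 muscle genes rose. Of 5 red blood cell and adipocyte genes only Cfd, a complement factor, rose. Of 25 cell cycle genes 15 rose (median 0.47), with 8 or 9 rises without Sham replicate 1, Sham replicate 2, TCI day 7 replicate 2 or TCI day 14 replicate 2. Of 22 glucocorticoid and stress genes 2 rose and 1 fell (0 to 2 fell with 1 sample left out), and of 16 clock genes 1 rose. In each of these lists the share that rose was below that of all genes.

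Within the late pool, the 4 samples of day 14 were compared with the 3 of day 7. None of the genes named above as falls was called between day 14 and day 7 by limma, where 1396 genes had an unadjusted p under 0.05 and Igsf9 was higher and Pla2g2a, Gzma, Fbln1, Lbp, Foxd1, Tagln, Foxc1, Msr1, Lsr, Enpp3, Igfbp6, Csf3r and F13a1 were lower on day 14, genes outside the falls. Tested alone against the early pool, day 7 gave 2580 rises and 730 falls and day 14 gave 1609 and 405. For the neurofilaments the falls were 0.26 to 0.28 on day 7 and 0.25 to 0.29 on day 14, and for Cyp51 0.40 and 0.41. Bcan had -0.46 on day 7 and -0.78 on day 14, and Kcnj10 -0.64 and -0.86, differences between the days that were not called. The list medians were -0.24 on day 7 and -0.22 on day 14 for myelin genes and -0.14 and -0.12 for cholesterol synthesis, but -0.09 and -0.18 for satellite glia and 0.02 and -0.13 for non-myelinating and repair Schwann cell genes. No difference between these medians was tested.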

How the data were processed

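RNA of 16 rat DRG samples was sequenced, on BGISEQ by the study's methods (the labels name an Illumina protocol). Per the study's methods and the submitters' processing notes, the authors cleaned the reads, aligned them with HISAT and Bowtie2, quantified genes with RSEM and deposited FPKM per gene. The genome build and annotation are not given in the sources used here, and depth is unknown because the deposited FPKM values hold no counts.

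Late and early pools, named above, were compared with limma 3.58.1 (R 4.3.3) with an intensity trend on log2(FPKM + 1), over the 14023 of 21021 genes that reached 1 FPKM in 3 or more of the 14 samples. The pseudocount understates changes of low genes. A gene was called at a Benjamini-Hochberg adjusted p of at most 0.05. The labels give each sample a number and the methods 1 animal each. Library measures were compared with exact permutation tests. Scalings, filters, sample choices and a replicate block were run as alternatives. The fit was tested on simulated data. Motifs were searched in RefSeq promoters with Python 3.11.15.

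The members and the 41 gene lists were chosen with earlier results of these data known. Genes were named by a rule: the 12 largest falls and 8 largest rises among called genes of at least 5 FPKM without overlap of the pools, the 8 falls under 0.5 with the smallest adjusted p, and, per list, up to 6 called members in the majority direction, 3 called the other way and 4 of the highest level not called, besides the first 4 entries of each list. Genes named beyond it (further cholesterol enzymes, Fbln1, Gbp2, Cxcl10, Cd3e, other uncalled relatives and the genes that differed between day 14 and day 7) were chosen after their values were seen. Some genes that the rule names are not reported here.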

Additional observations from a re-analysis of the deposited data

Results flagged for a closer look

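In 138 groups of 7 values, list levels and named genes in each pool, a sample at one end was set against the rest of its pool by Dixon's ratio, which chance passes in about 1 of 20 groups. TCI day 14 replicate 3 lay apart from the other late samples in 3 list levels (mean log2(FPKM + 1)) and in 3 genes. Its pan-neuronal level was 7.32 (others 7.06 to 7.17), its satellite glia level 4.85 (5.13 to 5.23) and its level of non-myelinating and repair Schwann cell genes 4.56 (4.84 to 5.01), and it was lowest for Lect1 at 5.79 (6.12 to 6.37), Kcnj10 at 3.5 (4.13 to 4.60) and Gria4 at 1.92 (2.25 to 2.42) on the same scale.

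Sham replicate 4 lay apart from the other early samples in skeletal muscle genes at 4.82 (2.05 to 2.16), nerve injury genes at 3.99 (3.44 to 3.66), ion pumps and creatine kinase at 5.62 (5.34 to 5.43) and B cell genes at 2.67 (2.27 to 2.44). TCI day 14 replicate 2 lay above the other late samples in MHC class I genes at 6.49 (5.07 to 5.53) and interferon-stimulated genes at 5.21 (3.27 to 4.08), and in Cxcl9 at 7.64 (4.62 to 5.87) and Cxcl13 at 7.33 (3.54 to 4.88). Single samples also stood apart for Nt5dc2 (TCI day 1 replicate 3 at 4.42, others 3.97 to 4.15), Bdnf (TCI day 7 replicate 2 at 2.20, others 2.42 to 2.56) and Gria4 (TCI day 1 replicate 1 at 2.52, others 2.78 to 2.93).

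TCI day 7 replicate 3, a sample outside the comparison, had a skeletal muscle level of 9.19, against 2.05 to 4.82 in the early samples.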

How the results depend on the processing

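The 2645 rises and 777 falls stayed within 1.5 times of these counts in every fit without 1 sample, at 2230 to 2999 and 549 to 919. Rises numbered 809 with TCI day 1 alone as the early group, 1609 with day 14 alone as the late group, 934 for day 14 against sham (an alternative chosen after seeing the data), 1554 with a mean of at least 5 FPKM, 1580 under quantile normalization and 4700 under pan-neuronal scaling. Falls numbered 113, 405 and 194 under the first 3 of these, and 1307, 3102 and 152 under median-ratio, quantile and pan-neuronal scaling. The 356 rises past the study's cut-offs numbered 16, 123 and 4 under the same 3 sample choices, 111 with sham alone as the early group and 152 with a mean of at least 5 FPKM, and the falls past them, 0 elsewhere, numbered 1 with day 7 alone. The sample choices hold fewer samples and the filter fewer genes by construction. The neuronal median of -0.06 was -0.029 with TCI day 1 alone, -0.10 with all 16 samples, and -0.089, -0.12 and 0.026 under median-ratio, quantile and pan-neuronal scaling, where the metabolic median of -0.04 was -0.069, -0.092 and 0.052. The immune median of 1.53 was 2.03 with a mean of at least 5 FPKM and 2.14 with a pseudocount of 0.1. Pfkm, which fell by 0.16, had 0.065 with all 16 samples, and the cause was not tested. With the replicate number as a block 2537 genes rose, 798 fell and 292 passed the study's cut-offs, and class medians were -0.06, -0.18, -0.02 and 1.45 for neuronal, glial, metabolic and immune lists. The 18 same-numbered pairs of samples had a mean correlation of 0.03 against -0.01 in 55 other pairs. Of the 14 samples 6 correlated best with their own number. Whether same-numbered samples share more than that number was not tested. The deposited values hold no depth, so counting error could not be set beside any value.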

Other observations

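Gene families outside the lists were looked at after the values were seen, 12 in all, and are given as counts only. Of 8 protocadherin genes, which encode cell adhesion proteins of neurons, 5 fell (median -0.20), and of 9 Slitrk and Lrrtm genes, which encode synapse organizers, 6 fell (median -0.21). Of 13 cathepsin genes, proteases of the lysosome, 10 rose (median 0.64), while of 28 proteasome genes 0 were called. Of 12 tubulin genes, between which reads may be split, 4 fell and 1 rose (median -0.09, and 0.00 under pan-neuronal scaling). Of 13 Notch pathway genes Jag2, Heyl and Hes5 fell and Hes1 rose. Hes5, a Notch target, had the largest fall of all called genes, 1.17 on the log2 scale, with overlap between the pools.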
